A study of Homo sapiens with 18 samples.

Results

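Chromatin accessibility at interferon response genes was described in Ccd18-Co, an established line of human colon fibroblasts, from bulk ATAC-seq, an assay in which a transposase cuts open DNA and tags it for sequencing. The 42 genes were chosen as a list of interferon-induced and interferon-regulating genes, and their peaks were all consensus peaks overlapping the gene body or the 10 kb upstream of it. This rule took 255 of 334857 peaks. Of them, 51 overlapped the 500 bp on either side of a member's annotated start and are called start peaks, out of 17371 start peaks of all protein-coding genes. A gene's locus is the sum of the counts over its peaks, and 42 of 19188 loci were members. A window held between 1 and 22 peaks, with a median of 5, and 41 members had a start peak. GBP5, a guanylate-binding protein, was the member without one. Of the 255 member peaks, 78 overlapped the body of a protein-coding gene outside the list.

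The 18 libraries formed 3 groups of 6 and came from this 1 line. Unstimulated cells received no cytokines. The other groups were pulsed 3 times, for 72 h each with 96 h of recovery, with TNF, OSM and IL-17A at 10 ng/ml each and IL-1β at 0.1 ng/ml. After a rest of 1 week they were given either the solvent DMSO (the DMSO group) or 250 nM belinostat, a histone deacetylase inhibitor (the belinostat group), for 5 days, and were collected 2 weeks later. The mix held no interferon. The doses are those of the sample labels, and the text of the study also gives a lower IL-1β dose and a higher belinostat dose for its assays, so the dose behind these libraries is uncertain. The labels do not say whether unstimulated cells also received DMSO, so effects of the solvent and of the cytokines cannot be told apart. They also name no separate cultures, so the p-values measure the spread between these libraries. DMSO against unstimulated is the cytokine contrast, belinostat against DMSO the belinostat contrast, and belinostat against unstimulated the residual contrast. The contrasts share libraries and are not independent.

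Interferons are cytokines that put cells into an antiviral state. Type I and type III interferons signal through the kinases JAK1 and TYK2 to a complex holding STAT2 and IRF9, which binds the interferon-stimulated response element (ISRE) at the starts of antiviral genes, while interferon gamma acts at gamma-activated sites (GAS). Fibroblasts respond to interferons too, and inflammatory cytokines such as TNF can reach part of the same gene set through IRF1 and NF-kappaB.

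The sequences that carry these elements are shown first, because the starts of the members hold the motif by which the family is known. The ISRE was searched on both strands as GAAA, any 2 bases, then GAAA, so that matches can overlap. In the 300 bases around the RefSeq start (GRCh38.p14, 250 before and 50 after), 22 of the 32 members with an entry held it (68.8%), against 3.57% of 35116 promoters. A GAS, written as TTC, any 3 bases, then GAA, was held by 8 of the 32 members against 7.66% of promoters, and the kappaB motif by 18.8% against 11.3%. No promoter was printed or searched for OASL, GBP5, USP18, MX2, IRF7, TRIM22, IFIT2, GBP2, OAS2 and IRF2. Below are stretches before the start of 5 members, less every annotated exon base, each 5′ to 3′ on the strand of the gene, with the ISRE letters in capitals. They show the motif as a close pair, overlapping, or apart.
IFIT1 (chr10:89392373-89392545, + strand): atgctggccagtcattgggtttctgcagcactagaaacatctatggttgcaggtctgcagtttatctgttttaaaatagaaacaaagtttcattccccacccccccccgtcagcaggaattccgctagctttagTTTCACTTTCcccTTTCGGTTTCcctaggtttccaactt
IFIT3 (chr10:89327747-89327940, + strand): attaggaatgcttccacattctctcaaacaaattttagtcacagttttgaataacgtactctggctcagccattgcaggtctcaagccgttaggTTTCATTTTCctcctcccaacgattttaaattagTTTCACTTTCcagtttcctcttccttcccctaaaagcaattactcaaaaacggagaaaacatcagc
IFI27 (chr14:94110565-94110677, + strand): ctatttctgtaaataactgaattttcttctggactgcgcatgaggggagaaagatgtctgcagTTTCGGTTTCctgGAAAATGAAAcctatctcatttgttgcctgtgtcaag
ISG15 (chr1:1013247-1013496, + strand): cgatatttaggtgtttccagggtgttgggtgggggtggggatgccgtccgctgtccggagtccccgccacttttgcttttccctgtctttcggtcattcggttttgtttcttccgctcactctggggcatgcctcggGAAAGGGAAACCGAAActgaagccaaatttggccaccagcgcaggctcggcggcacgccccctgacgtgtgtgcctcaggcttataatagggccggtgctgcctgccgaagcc
HERC5 (chr4:88456869-88457118, + strand): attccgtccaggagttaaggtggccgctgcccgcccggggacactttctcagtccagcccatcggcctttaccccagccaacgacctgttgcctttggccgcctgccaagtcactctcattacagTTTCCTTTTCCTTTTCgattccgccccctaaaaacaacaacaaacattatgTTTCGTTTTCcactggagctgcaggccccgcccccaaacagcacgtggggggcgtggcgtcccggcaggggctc
IFIT1, IFIT3 and IFI27 held a pair of matches each, the 2 matches of ISG15 overlapped, and HERC5 held 3. These letters are a description of the window and do not show that a factor was bound.

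Away from the starts of any gene, 11.1% of 199 member peaks held an ISRE within 300 bases at their centre, against 3.67% of 317486 peaks, and over all 255 member peaks the share was 13.7% against 3.59%. The AP-1 word (TGA, any base, then TCA) was about as frequent in member peaks (19.6%) as in all peaks (17.8%). The next stretches are the centres of 4 such peaks whose accessibility differed between groups below (hg38, forward strand), again with the ISRE in capitals.
ISG20 (chr15:88649143-88649442): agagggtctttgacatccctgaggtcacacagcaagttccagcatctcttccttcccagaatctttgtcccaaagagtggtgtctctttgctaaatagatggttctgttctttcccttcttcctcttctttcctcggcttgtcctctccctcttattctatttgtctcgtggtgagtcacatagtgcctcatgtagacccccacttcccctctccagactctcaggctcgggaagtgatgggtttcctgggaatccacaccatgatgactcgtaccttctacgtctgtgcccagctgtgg
OAS1 (chr12:112916271-112916508): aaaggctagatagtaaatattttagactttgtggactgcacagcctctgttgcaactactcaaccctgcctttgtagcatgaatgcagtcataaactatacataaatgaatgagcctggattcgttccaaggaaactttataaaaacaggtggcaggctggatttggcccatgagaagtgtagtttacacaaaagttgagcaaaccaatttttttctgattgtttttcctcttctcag
IRF2 (chr4:184450090-184450389): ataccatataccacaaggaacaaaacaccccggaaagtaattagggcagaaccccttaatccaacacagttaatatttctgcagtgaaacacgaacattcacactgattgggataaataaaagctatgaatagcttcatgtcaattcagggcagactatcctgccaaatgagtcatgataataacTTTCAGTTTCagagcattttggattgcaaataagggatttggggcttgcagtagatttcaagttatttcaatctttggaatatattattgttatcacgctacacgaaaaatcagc
CMPK2 and RSAD2 (chr2:6866435-6866734): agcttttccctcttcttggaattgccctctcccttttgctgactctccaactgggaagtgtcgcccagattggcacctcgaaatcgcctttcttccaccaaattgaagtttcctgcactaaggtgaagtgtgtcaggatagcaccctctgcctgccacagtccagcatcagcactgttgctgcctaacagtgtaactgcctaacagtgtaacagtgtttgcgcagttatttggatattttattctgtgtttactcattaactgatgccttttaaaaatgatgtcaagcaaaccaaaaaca
Only the IRF2 stretch of these 4 held an ISRE. The ISG20 window held a GAS and an AP-1 word, the IRF2 window an AP-1 word next to its ISRE, the CMPK2 and RSAD2 window a GAS, and the OAS1 window none of the searched words. The OAS1 stretch was cut short where a coding exon begins, so that peak spans an intron and part of an exon.

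Libraries held between 4661678 and 11352032 counts in peaks, with means of 8440401, 7209582 and 5527244 in unstimulated, DMSO and belinostat cells, and member peaks took 0.149%, 0.140% and 0.141% of them. The 10000 strongest peaks held 36.8%, 33.1% and 30.9% of the counts in peaks. This share moved with the groups, and its part in the results below was not tested. Levels of starts are in CPM per kb in unstimulated cells, the counts scaled to library size and peak length. Of the fibroblast genes, some starts were high (COL1A1 at 68.0 and PDGFRA at 41.0). Those of THY1 (16.0), COL3A1 (14.8), COL6A3 (11.0), DCN (9.54) and LUM (8.25) lay under the median of all starts (16.5). Epithelial EPCAM (2.75) and CDH1 (1.42) and endothelial PECAM1 (2.03) were low. But epithelial KRT18 was at 29.7, smooth muscle ACTA2 at 35.8 and immune CD14 at 8.86, so these starts mark the cell type only in part. PTPRC and CD79A had no start peak. All contrasts were scaled by TMM, a trimmed mean over peaks. As the change in the cytokine contrast differed between weak and strong peaks, the counts are also given with loess offsets, which remove a trend of each library with peak strength. Over all peaks, the median change in the cytokine contrast was 0.13 with TMM, 0.34 with library totals, 0.18 with TMM over 10 kb bins, -0.29 with TMM over the weaker 50% of peaks and 0.01 with loess offsets.

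In unstimulated fibroblasts the starts of interferon response genes differed widely in accessibility, the lowest being at the level of EPCAM and PECAM1 above. Per kb, the highest start peak was that of STAT2, a factor of type I interferon signalling, at 91.5 CPM per kb. It was followed by IRF7, the inducer of interferon genes (57.3), IFI6, a small antiviral membrane protein (45.9), ISG20, an exonuclease that degrades RNA (45.9), and IRF1, the factor named after interferon regulation (42.03). The lowest were IFI27, a mitochondrial interferon-induced protein (2.15), OASL, a relative of the OAS enzymes that tunes RNA sensing (2.78), IFI44L (2.79), IFI44 (3.12) and BST2, which tethers budding virus to the cell (3.14). STAT2 and IRF7 lay above the next value by more than their SDs, whereas the SDs of ISG20, IFI6 and IRF1 overlapped, as did those of the 5 lowest. Start peaks of all genes had quartiles of 6.26, 16.5 and 28.6 CPM per kb. Of the 51 member start peaks, 32 lay below this median and 19 above it, 13 under the lower and 9 over the upper quartile.

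**Figure D1:**
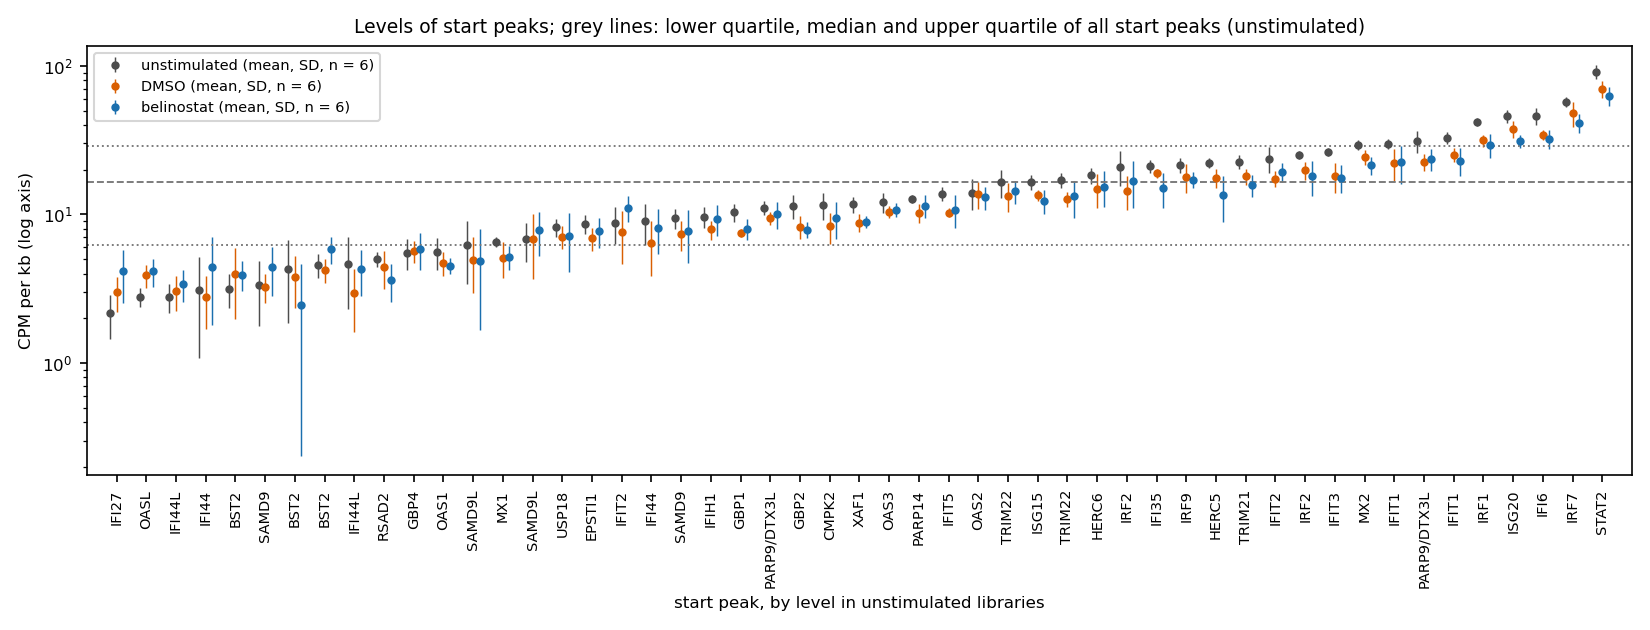
Level of each of the 51 start peaks in CPM per kb (log axis) as mean and SD over 6 libraries per group, ordered by the level in unstimulated cells, with the quartiles of all start peaks as grey lines. STAT2 at 91.5 is the highest and IFI27 at 2.15 the lowest, and most groups of 1 peak lie close together.

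The cytokine contrast asked what the pulses left at these genes after the rest. Counted peak by peak, 8 member peaks opened (9.51% of all peaks did) and 53 closed (9.73% of all). The median log2 fold change of the members was -0.18 against 0.13 for all peaks, and 155 of 255 were below 0. This difference of -0.31 was between -0.31 and -0.32 with the other scalings by a single factor, and -0.04 with loess offsets. The split of calls followed the scaling, with 21 opened and 17 closed by library totals, 11 and 43 by TMM over bins, and 2 and 114 by TMM over the weaker 50% of peaks. The medians of all peaks under these scalings were 0.34, 0.18 and -0.29. With loess offsets 2 opened and 5 closed, where 2.0% and 1.9% of all peaks did. The 53 peaks that closed were 19 of 51 start peaks, 16 of 104 in introns, 12 of 46 in the gene outside its main transcript and 6 of 40 upstream. For the places other than starts, the share of all peaks was not counted.

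At the starts, none of the 51 peaks opened (2.39% of all start peaks did) and 19 closed, against 51.8% of all start peaks. The unadjusted p was under 0.05 for 1 opening, and DESeq2 called none. The median log2 fold change of -0.30 was close to the -0.33 of all start peaks. With loess offsets 1 member start opened (1.8% of all) and none closed (0.587% of all). The start peak of IFIT3, which binds viral RNA together with IFIT1, had the largest fall among those that passed and lies in the body of LIPA, the gene of lysosomal acid lipase. It was at log2 CPM 4.19, 4.39 and 4.42 (lowest, median and highest) in unstimulated libraries and at 3.34, 3.88 and 4.18 in DMSO libraries. The DMSO libraries all lay below the unstimulated ones, and the log2 fold change was -0.54 (standard error 0.12, adjusted p 0.000985), or -0.19 (adjusted p 0.19) with loess offsets. The start of OASL was the one that rose with loess offsets (0.63, adjusted p 0.0417), and gave 0.46 (adjusted p 0.0769) with TMM. The starts of HERC5, TRIM21, STAT2 and ISG20 and 1 of the 2 IRF2 start peaks that closed with TMM turned to values from 0.0136 to 0.115 with loess offsets. The other IRF2 start peak went from -0.54 to -0.40 (adjusted p 0.251).

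**Figure D2:**
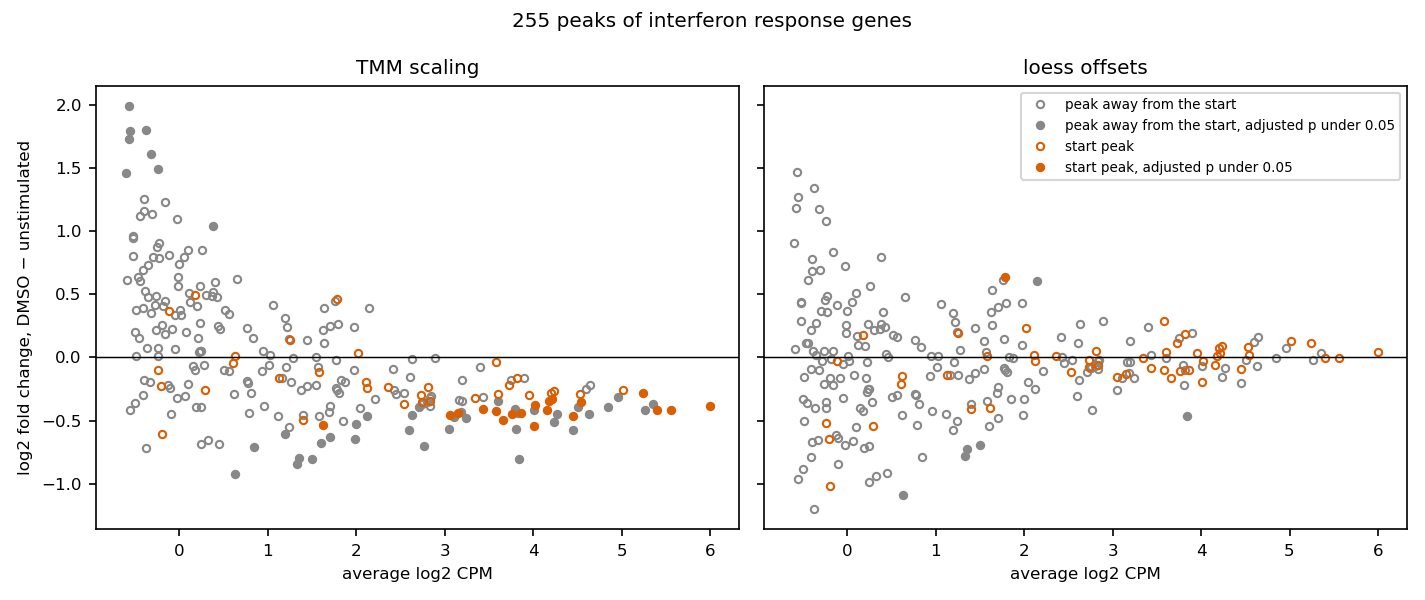
Log2 fold change of DMSO over unstimulated cells (vertical) against average log2 CPM (horizontal) for the 255 peaks, with start peaks in orange and filled symbols for an adjusted p under 0.05. With TMM the strong start peaks sit near the median of -0.30, and with loess offsets they centre near 0 (median -0.02).

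Summed over whole loci, interferon response genes moved little and not as a block. The locus rose at 2 members (20.2% of all loci did) and fell at 5 (13.4% of all), with a median of -0.06 against -0.02 for all loci. Of the 42, 38 stayed within 0.25 log2 units, a share that was not counted for all loci. The split was 1 higher (14.0% of all loci) and 7 lower (8.33% of all) with loess offsets. It was 2 and 10 with library totals, 2 and 24 with TMM over bins and 0 and 40 with TMM over the weaker 50% of peaks. Under these scalings the medians of all loci were -0.04, -0.21 and -0.70. At a locus, fewer cells with an open site and a less open site in each cell cannot be told apart.

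The loci that rose were IFI27 and OASL. The IFI27 locus (chr14:94104836-94116695) was at log2 CPM 1.83, 2.04 and 2.35 (lowest, median, highest) in unstimulated and 2.40, 2.78 and 3.08 in DMSO libraries. Every DMSO library was above every unstimulated one, with a log2 fold change of 0.75 (standard error 0.14, adjusted p 0.00061). It was 0.35 with loess offsets (adjusted p 0.0519) and 0.07 with TMM over the weaker peaks (adjusted p 0.695). The OASL locus (chr12:121017763-121039246) went from 2.19, 2.59 and 2.84 to 2.96, 3.29 and 3.45, again without overlap. Its log2 fold change was 0.70 (standard error 0.14, adjusted p 0.000925). Loess offsets gave 0.39 (adjusted p 0.0119) and TMM over the weaker peaks gave 0.03 (adjusted p 0.836). Both loci are among the weakest of the list, and IFI27's rise was spread over peaks of which none passed on its own.

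The IFIT family, whose members bind viral RNA and halt its translation, lay below 0 at 4 of 4 loci, and 2 of them fell. Of all 19188 loci, 10400 were below 0, and 13.4% fell. The IFIT3 locus was at log2 CPM 6.15, 6.19 and 6.25 in unstimulated and 5.74, 5.97 and 6.09 in DMSO libraries. These groups did not overlap, and the log2 fold change of -0.26 (standard error 0.07, adjusted p 0.00533) kept its call in all 26 alternatives. IFIT2 fell by 0.20 on the log2 scale (adjusted p 0.0161), a call lost without DMSO 1 (adjusted p 0.0532) and with loess offsets (0.0568). IFIT1 (-0.16) and IFIT5 (-0.18) did not pass. All peaks in the windows of IFIT2 and IFIT3 also lie within the annotated extent of LIPA, so their counts cannot be given to the IFIT genes alone.

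CMPK2, a mitochondrial kinase of nucleotides next to RSAD2 (viperin), fell by 0.22 (adjusted p 0.0299), IFI6 by 0.17 (adjusted p 0.0314) and IRF2, a repressor and partner of IRF1, by 0.10 (adjusted p 0.0269). These calls were lost without single libraries, DMSO 1 among them in each case: CMPK2 without 7 (adjusted p up to 0.0851), IFI6 without 5 (up to 0.0927) and IRF2 without 5 (up to 0.0704). With loess offsets CMPK2 passed (adjusted p 0.0495), while IFI6 (-0.14, adjusted p 0.0959) and IRF2 (-0.05, adjusted p 0.25) did not. RSAD2, which shares peaks with CMPK2, gave -0.21 (adjusted p 0.0714). No locus passed among the ISG15 system (ISG15, USP18, HERC5 and HERC6), the antiviral GTPases MX1 and MX2, the guanylate-binding proteins, the restriction factors or the PARP9, PARP14 and DTX3L group. With loess offsets GBP1, GBP2 and GBP5, GTPases that act on intracellular pathogens, and IFI44 and IFI44L also fell (adjusted p between 0.00225 and 0.0463).

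**Figure D3:**
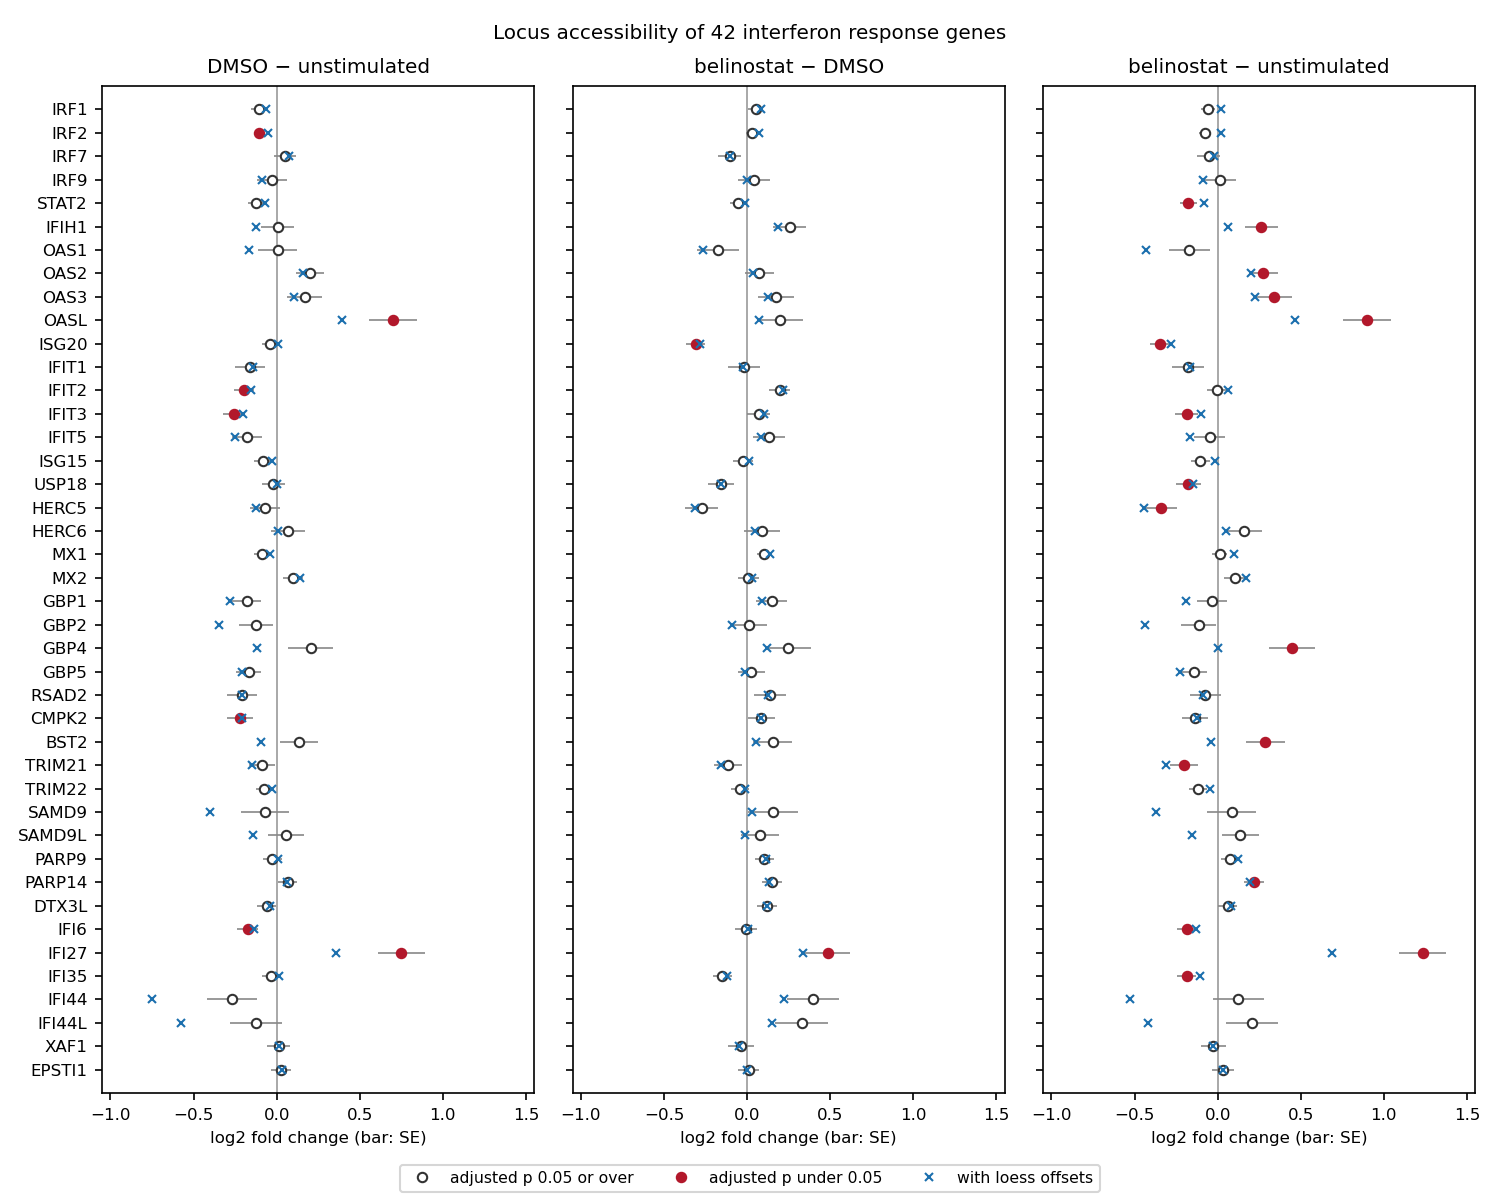
Log2 fold change of the 42 loci (rows, by role) in the 3 contrasts, with bars for the SE, filled red points for an adjusted p under 0.05 with TMM and blue crosses for loess offsets. Most points lie within 0.25 of 0, and IFI27 (0.75, 0.48 and 1.23) and OASL (0.70, 0.20 and 0.90) stand out on the right.

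**Figure D4:**
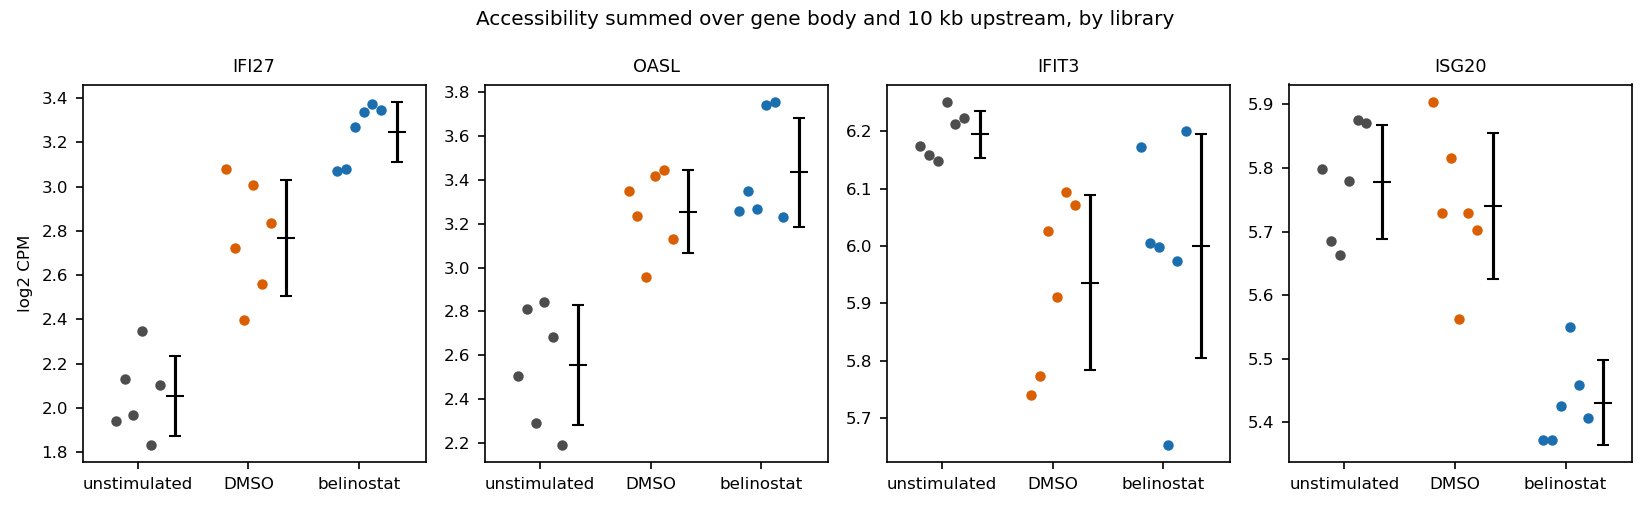
Log2 CPM of 4 loci in each of the 18 libraries (points), with mean and SD beside them. IFI27 and OASL are higher in every DMSO than in every unstimulated library, IFIT3 is lower, and ISG20 is lower in every belinostat library than in every DMSO library.

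Single peaks within these loci changed more than their sums. The largest fall, in the gene extent of TRIM22 and the body of TRIM5 (chr11:5720136-5720474), was -0.92 (adjusted p 0.0177). Its call was lost in 4 alternatives, among them those without unstimulated 4 or DMSO 1 (adjusted p up to 0.172). The next 4 kept their direction in all 25 alternatives. An intronic peak of MX1, a GTPase that traps viral nucleocapsids (chr21:41439360-41439876), was at log2 CPM 1.66, 1.86 and 1.95 in unstimulated and 0.59, 0.97 and 1.76 in DMSO libraries, and 1 DMSO library reached into the unstimulated range. Its log2 fold change was -0.85 (standard error 0.21, adjusted p 0.00326). A peak before the main start of CMPK2 and further before that of RSAD2 (chr2:6866473-6866696) gave -0.80 (standard error 0.22, adjusted p 0.00566). The ISRE-bearing IRF2 peak (chr4:184450110-184450368, in an intron) gave -0.80 (standard error 0.21, adjusted p 0.00499). These 3 peaks passed in 25 of 25 alternatives, loess offsets included.

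The remaining peak, within the extent of IFIT3 but 24207 bp past its start and in the body of LIPA (chr10:89351737-89352671), was a stronger peak. It was at log2 CPM 4.07, 4.17 and 4.51 in unstimulated and 2.11, 3.63 and 3.86 in DMSO libraries, without overlap. The log2 fold change was -0.80 (standard error 0.14, adjusted p 2.24e-05; -0.46 and 0.00648 with loess offsets). The DMSO libraries spread more widely than the unstimulated ones. Leaving out single libraries gave an adjusted p of at most 0.000805, and the call was lost in 1 of the other alternatives. The 8 peaks that opened were weak. The 5 largest, in MX1, MX2, CMPK2, HERC6 and OASL, each held 49 to 65 counts over all 18 libraries and none passed with loess offsets.

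Few peaks changed with belinostat, given after the pulses, among the members and among all peaks alike. No member peak opened (0.607% of all peaks did) and 3 closed (1.75% of all), while 16 and 17 had an unadjusted p under 0.05 and DESeq2 called 0 and 4. With loess offsets 5 opened (0.945% of all) and 3 closed (1.51% of all). None of the start peaks opened (0.127% of all start peaks) or closed (0.645%), with 2 and 3 at an unadjusted p under 0.05 and 0 and 0 by DESeq2, and their median was 0.04 against -0.10 for all start peaks. With loess offsets 1 start opened (1.39% of all) and none closed (0.397% of all). That start was IFIH1, the sensor MDA5 of double-stranded RNA (0.38, adjusted p 0.0249, against 0.24 and 0.374 with TMM), whose start peak also lies in the body of GCA.

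The clearest change was in ISG20. A peak centred in an intron of the gene (chr15:88648872-88649712), 10276 bp past its start, was at log2 CPM 3.49, 3.72 and 3.83 in DMSO and 2.44, 2.69 and 2.85 in belinostat libraries. All 6 belinostat libraries were below all 6 DMSO libraries by a wide gap, with a log2 fold change of -1.07 (standard error 0.14, adjusted p 5.96e-09) that passed in 25 of 25 alternatives. In unstimulated libraries it was at 3.86, 4.05 and 4.34, above the DMSO libraries, and the cytokine contrast gave -0.34 (adjusted p 0.0323) with TMM and -0.01 (0.978) with loess offsets. Belinostat cells lay further from unstimulated cells than DMSO cells did, at -1.42 (standard error 0.14, adjusted p 1.01e-16).

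In OAS1, an enzyme that on sensing double-stranded RNA makes the messenger that activates RNase L, a peak 9458 bp past the start (chr12:112916099-112916742) behaved in the same order. It was at 1.65, 2.48 and 3.05 in unstimulated, 1.39, 1.97 and 2.45 in DMSO and 0.36, 0.94 and 1.33 in belinostat libraries. DMSO and belinostat libraries did not overlap. The belinostat contrast gave -1.10 (standard error 0.23, adjusted p 0.00101, passing in 25 of 25 alternatives) and the cytokine contrast -0.64 (standard error 0.18, adjusted p 0.00598), the latter lost without unstimulated 1 (adjusted p 0.0615) and with loess offsets (0.109). The weaker neighbouring peak of OAS1 (chr12:112917331-112917633) went the other way, at 0.58 (adjusted p 0.45). The third peak that closed, in an intron of IRF2 (chr4:184394908-184395168), gave -0.75 (standard error 0.21, adjusted p 0.0267), with overlapping groups. Its call was lost without any one of DMSO 1, 2, 3 and 6 or belinostat 2, 3, 4 and 5 (adjusted p up to 0.106).

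**Figure D5:**
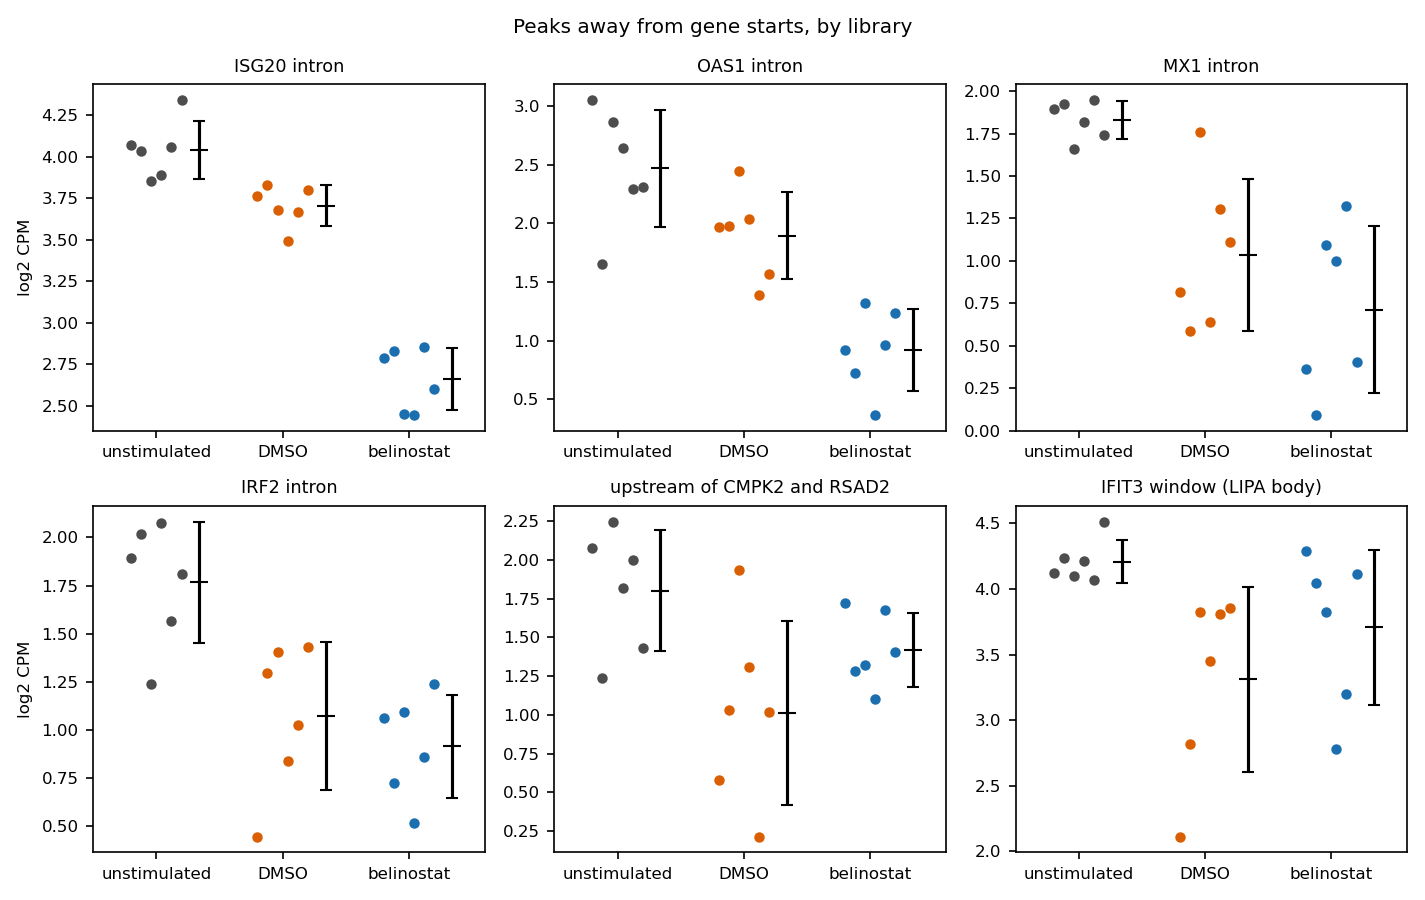
Log2 CPM of 6 peaks away from gene starts in each of the 18 libraries (points), with mean and SD beside them. In ISG20 and OAS1 the belinostat libraries are the lowest group, at medians of 2.69 and 0.94, and in the other 4 the DMSO libraries lie lower than most unstimulated ones.

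At the locus level, belinostat raised 1 member (1.91% of all loci were higher) and lowered 1 (3.92% of all). The median was 0.07 against 0.01, and 36 of 42 loci stayed within 0.25 log2 units, again not counted for all loci. The ISG20 locus fell from 5.56, 5.73 and 5.90 to 5.37, 5.42 and 5.55 log2 CPM without overlap, by 0.31 (standard error 0.06, adjusted p 0.00176; 0.00469 with loess offsets). IFI27 rose by 0.48 (standard error 0.14, adjusted p 0.0322), in libraries that overlapped at 3.07, 3.30 and 3.38 against 2.40, 2.78 and 3.08. This call was lost with loess offsets (adjusted p 0.111) and without any one of DMSO 2, 3, 5 and 6 or belinostat 3, 4, 5 and 6 (adjusted p up to 0.0802). IFIT2, lower after the cytokines, gave 0.20 (adjusted p 0.0713), and 0.22 (adjusted p 0.0371) with loess offsets. OASL gave 0.20 (adjusted p 0.41) and IFIT3 0.07 (adjusted p 0.596).

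Set against unstimulated cells, belinostat-treated cells differed at more sites. Here 22 member peaks were more open (16.8% of all peaks) and 64 less open (13.7% of all), and 2 start peaks were more open (4.24% of all) and 21 less open (61.3% of all). With loess offsets the peaks were 9 (3.82% of all) and 11 (4.92% of all), and the starts 4 (6.45% of all) and 0 (1.46% of all). Library totals gave 51 more open and 28 less open peaks, TMM over bins 30 and 53, and TMM over the weaker peaks 1 and 133. The medians of all peaks under these scalings were 0.50, 0.27 and -0.36. At loci, 8 members were higher (27.6% of all loci) and 8 lower (25.1% of all). The medians were -0.03 for members and -0.01 for all. Loess offsets gave 4 (20.4% of all) and 8 (18.3% of all). TMM over bins gave 2 and 28 and TMM over the weaker peaks 1 and 40, where the medians of all loci were -0.27 and -0.90.

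IFI27 stood apart most. Its locus was at 1.83, 2.04 and 2.35 log2 CPM in unstimulated and 3.07, 3.30 and 3.38 in belinostat libraries, a change of 1.23 log2 units (standard error 0.14, adjusted p 7.14e-07) that passed in 26 of 26 alternatives. Its strongest peak was an upstream one that lies in the body of IFI27L1 (chr14:94100796-94101406), so its counts cannot be given to IFI27 alone. It was at 0.94, 1.40 and 1.52 against 1.77, 2.18 and 2.29, without overlap. That peak gave 0.85 (standard error 0.20, adjusted p 0.000403), and loess offsets gave 1.07 (adjusted p 2.21e-05). The OASL locus gave 0.90 (standard error 0.14, adjusted p 2.68e-05). Its start peak gave 0.57 (standard error 0.20, adjusted p 0.0224), and 0.79 with loess offsets. Under TMM over the weaker peaks the locus and the start were at -0.00045 and -0.00345. The medians of all loci and of all start peaks were then -0.90 and -0.98. The call of the start was lost without unstimulated 6 or belinostat 5 (adjusted p up to 0.138). A peak in the annotated extent of IRF1 and of a further gene around it (chr5:132480798-132481551) gave 0.82 (standard error 0.21, adjusted p 0.00151; 1.00 and 0.000306 with loess offsets), with values of 0.94, 1.14 and 1.65 against 1.84, 1.94 and 2.33.

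Of the RNA sensors and degrading enzymes, 4 of 6 loci were higher (OASL, OAS2 at 0.27, OAS3 at 0.34 and IFIH1 at 0.26), where 27.6% of all loci were. ISG20 was lower, as were 25.1% of all loci. Under TMM over the weaker peaks OAS2, OAS3 and IFIH1 turned to between -0.64 and -0.58, where the median of all loci was -0.90. With loess offsets 1 of the 6 was higher (OASL) and 2 were lower (ISG20 and OAS1, at -0.43 with an adjusted p of 0.00642), while OAS2, OAS3 and IFIH1 did not pass (adjusted p 0.0707, 0.0775 and 0.647). The call was lost without belinostat 4 for OAS3 (adjusted p 0.0503) and without unstimulated 4 or 6 or belinostat 1 or 6 for IFIH1 (up to 0.0817). PARP14, a mono-ADP-ribosyltransferase (0.22, adjusted p 0.00392), GBP4 (0.45, adjusted p 0.00889) and BST2 (0.29, adjusted p 0.0422) were higher too and likewise turned negative under that scaling, BST2 also with loess offsets (-0.0427) and PARP14 with TMM over bins (-0.0384). ISG20 (-0.35, adjusted p 2.77e-05) and HERC5, the ligase that attaches ISG15 to proteins (-0.34, adjusted p 0.00477), were lower in 26 of 26 alternatives. The HERC5 libraries were at 4.28, 4.36 and 4.41 in unstimulated and 3.83, 3.86 and 4.52 in belinostat cells, where 1 belinostat library reached above all unstimulated ones. STAT2 (-0.18), IFIT3 (-0.19), USP18 (-0.18), TRIM21 (-0.20), IFI6 (-0.18) and IFI35 (-0.19) were also lower. Of these 6, TRIM21 passed with loess offsets (-0.31, adjusted p 0.00663), while STAT2 (-0.08, 0.15), IFIT3 (-0.10, 0.202), USP18 (-0.15, 0.0992), IFI6 (-0.13, 0.0959) and IFI35 (-0.10, 0.122) did not. The calls of IFIT3 (without unstimulated 4 or belinostat 4, adjusted p up to 0.0948) and IFI6 (without unstimulated 6 or belinostat 4, up to 0.0741) rested on single libraries. BST2, TRIM21 and USP18 lost theirs without any of 8 to 10 libraries (up to 0.11, 0.149 and 0.192). Of single peaks, those of OAS1 (-1.74), MX2 (-1.49, upstream and in the body of FAM3B), ISG20 (-1.42), MX1 (-1.15) and IRF2 (-0.997) were the most reduced, and all 5 passed in 25 of 25 alternatives. The largest rises were at other peaks, in OAS1 (1.81), HERC5 (1.70), PARP14 (1.69), MX2 (1.68) and MX1 (1.67). Their adjusted p lay between 0.00134 and 0.037, and each lost its call in at least 1 alternative, that of MX1 in 8.

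The surrounding pathway was described by a list of 81 further genes, of which 76 had peaks. CXCL11, IFNA1, IFNB1, IFNE and IFNG had none in their windows. In the cytokine contrast 11 of these loci rose (14.5%, against 20.2% of all loci) and 14 fell (18.4%, against 13.4%). With loess offsets 10 rose (14.0% of all loci) and 7 fell (8.33% of all). TLR3, the endosomal sensor of double-stranded RNA, fell by 0.54 (adjusted p 0.00061), IRF8 by 0.36 (adjusted p 0.00187), LGALS3BP by 0.21 (adjusted p 0.003) and SOCS3, a feedback inhibitor of JAK kinases, by 0.19 (adjusted p 0.00312). The interferon gene IFNL1 (0.98, adjusted p 0.00273), its receptor chain IFNLR1 (0.48, adjusted p 0.00355), the nucleic acid sensor ZBP1 (0.88, adjusted p 0.00303), IRF5 (0.65, adjusted p 0.00438) and IDO1 (0.45, adjusted p 0.00385) rose. Under TMM over the weaker peaks IFNLR1, IDO1 and IRF5 turned to -0.19, -0.24 and -0.03, where the median of all loci was -0.70.

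Under belinostat 2 pathway loci rose (2.63%, against 1.91% of all loci) and 7 fell (9.21%, against 3.92%). With loess offsets 2 rose (2.61% of all loci) and 5 fell (2.64% of all), and JAK2 and IFNAR2 did not pass. TNFSF10, the death ligand TRAIL, went from 4.35, 4.57 and 4.76 in DMSO to 3.99, 4.13 and 4.19 log2 CPM in belinostat libraries, without overlap. Its fall was 0.47 (standard error 0.08, adjusted p 0.00122; 0.000656 with loess offsets). IRF8, a factor of immune lineages, fell by 0.48 (adjusted p 0.00327) after having fallen in the cytokine contrast, TDRD7 by 0.33 (adjusted p 0.00583), IKBKE by 0.20 (adjusted p 0.013), IFNAR2, a chain of the type I receptor, by 0.19 (adjusted p 0.0441), TRIM24 by 0.18 (adjusted p 0.0093) and JAK2 by 0.13 (adjusted p 0.0388). TRIM14 (0.27, adjusted p 0.0163) and SP100 (0.19, adjusted p 0.0323) rose. SP100 was at -0.02 under TMM over the weaker peaks, where the median of all loci was -0.20. The calls of JAK2, IFNAR2 and SP100 were lost without any of 6 to 11 single libraries (adjusted p up to 0.0908, 0.116 and 0.0884). In the residual contrast 15 rose (19.7%, against 27.6% of all loci) and 23 fell (30.3%, against 25.1%). With loess offsets 11 rose (20.4% of all loci) and 13 fell (18.3% of all).

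The members were also grouped by the ISRE, as a description with no test. Among 28 start peaks of members with an ISRE in the promoter, 10 closed in the cytokine contrast with a median log2 fold change of -0.31, and among 11 without it 4 closed with a median of -0.30, where 51.8% of all start peaks closed. With loess offsets none of either group passed (1.8% of all start peaks opened and 0.587% closed). Over all member peaks, 9 of 35 with an ISRE and 44 of 220 without closed (9.73% of all peaks did), at medians of -0.33 and -0.10, and peaks with an ISRE were the stronger ones, at a median of 9.40 against 4.76 CPM per kb. With loess offsets 1 and 6 peaks passed in either direction (2.0% of all peaks opened and 1.9% closed), and the medians were -0.06 and -0.03. In the belinostat contrast 0 of 35 and 3 of 220 closed (1.75% of all peaks did), at medians of 0.06 and -0.00.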

How the data were processed

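Omni-ATAC-seq was performed by the authors on 18 libraries of Ccd18-Co cells. The deposited counts are whole, unnormalized read counts per consensus peak, made by the authors with trimming, alignment to hg38, removal of duplicates and mitochondrial reads, MACS2 peaks and csaw counting. Their methods state a filter at log2 CPM -3, and no peak of the table was dropped here. ChIPseeker 1.34.1 is named in the submitters' processing notes. Here peaks were assigned to genes with GENCODE release 44 and tested with edgeR 4.0.16 (quasi-likelihood, TMM, 3 groups in 1 fit, Benjamini-Hochberg adjustment over all peaks or loci, threshold 0.05, prior count 2 for log2 CPM) in R 4.3.3. Loess offsets (limma 3.58.1) fitted 1 curve per library against average abundance, and DESeq2 1.42.0 was an alternative. The script was tested on simulated data. Opened and closed mean an adjusted p under the threshold. Groups came from the sample labels. The depth of 4661678 to 11352032 counts gave a median SE of 0.23 log2 units for member peaks, 0.13 for start peaks and 0.08 for loci in the cytokine contrast. The members and lists were chosen with earlier results of these data known. All members could be named. Single peaks were the 5 largest rises and falls per contrast among those that passed, with start peaks, and pathway genes were at most 10 per contrast by p, of which 1 is not reported here. Peaks on either strand cannot be told apart.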

Additional observations from a re-analysis of the deposited data

Results flagged for a closer look

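Of 180 groups of 6 libraries examined, 6 held a library far from the others by Dixon's ratio, and chance flags about 1 group in 20. A weak peak of PARP14 was low in DMSO 4 (-1.32 log2 CPM, the others -0.54 to -0.27) and in belinostat 3 (-1.81, the others -0.20 to 0.36). The start of OASL was high in belinostat 5 (2.44, the others 1.72 to 1.95). The HERC5 locus was high in belinostat 1 (4.52, the others 3.83 to 4.07), the BST2 locus low in unstimulated 6 (2.96, the others 3.29 to 3.46) and the TRIM21 locus low in belinostat 4 (3.78, the others 4.07 to 4.22).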

How the results depend on the processing

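Counts of calls followed the scaling, and the cause was not tested. Opened and closed member peaks (8 and 53, 0 and 3, 22 and 64 in the cytokine, belinostat and residual contrasts) were 21 and 17, 1 and 2, 51 and 28 with library totals, 2 and 114, 0 and 3, 1 and 133 with TMM over the weaker 50% of peaks, and 2 and 5, 5 and 3, 9 and 11 with loess offsets. DESeq2 gave 4 and 28, 0 and 4, 13 and 43, and an average log2 CPM over 0 left 4 and 35, 1 and 4, 17 and 41. Leaving out single libraries gave 3 to 12 and 34 to 67, 0 to 1 and 2 to 8, 13 to 23 and 47 to 71. Start peaks with loess offsets were 1 and 0, 1 and 0, 4 and 0.

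Higher and lower loci (2 and 5, 1 and 1, 8 and 8) were 2 and 10, 1 and 1, 7 and 10 with library totals, 2 and 24, 0 and 1, 2 and 28 with TMM over bins, 0 and 40, 0 and 0, 1 and 40 with the weaker peaks, 1 and 7, 1 and 1, 4 and 8 with loess offsets, and 2 and 5, 0 and 1, 7 and 6 with 3 kb upstream. Leaving out single libraries gave 2 to 3 and 1 to 9, 0 to 1 and 1 to 3, 6 to 8 and 4 to 10. With a replicate block, peaks were 9 and 56, 0 and 4, 22 and 66 and loci 2 and 7, 1 and 1, 7 and 8. Libraries share only a number, and the labels give no pairing. The mean correlation of same-numbered deviations was 0.023 (-0.133 to 0.106), with other pairs between -0.219 and 0.263. This cannot decide whether same-numbered libraries were handled together.

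With loess offsets the cytokine values of start peaks turned for HERC5 (0.0136), IRF2 (0.0232), TRIM21 (0.0318), STAT2 (0.0433) and ISG20 (0.115), and the residual value of the BST2 locus (-0.0427). With the weaker peaks, cytokine values turned for IFNLR1 (-0.19), IDO1 (-0.24) and IRF5 (-0.0310), the belinostat value for SP100 (-0.0207), and residual values for the OASL start (-0.00345) and the loci of OASL (-0.00045), IFIH1 (-0.61), OAS2 (-0.64), OAS3 (-0.58), GBP4 (-0.44), BST2 (-0.61) and PARP14 (-0.66, and -0.0384 over bins). With the weaker peaks, the median of all loci was -0.70, -0.20 and -0.90 in the cytokine, belinostat and residual contrasts. Depth limits weak peaks most.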
